A study of Acipenser sturio with 24 samples.

Results

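Blastula libraries of sturgeon embryos were compared with early gastrula libraries to ask which transcripts, if any, appear or vanish across the onset of gastrulation. The comparison used 5 of the 24 libraries of a developmental series: NF stages 8 and 9 as blastula, and NF stages 10, 10.5 and 11 as early gastrula. NF stands for Nieuwkoop-Faber, a staging table made for the frog Xenopus and applied here to sturgeon. Each stage had 1 library from whole embryos, so the 2 groups held 2 and 3 libraries of different stages and no repeat of any stage. All libraries came from the Bester hybrid, in which beluga (Huso huso) is crossed with sterlet (Acipenser ruthenus), although the organism field of the labels reads Acipenser sturio. The embryos were untreated and raised in dilute saline, and their total RNA was depleted of ribosomal RNA. How many embryos or clutches went into a library is not stated in the labels. A hybrid carries transcripts of both parent species, which can assemble apart or together.

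Values were given per component, a cluster of assembled transcript sequences, with 275906 components in the table. Components with a deposited value of at least 1 in at least 2 of the 5 libraries were kept, which left 17569 (6.37%). These kept components carried between 98.2% and 98.3% of the summed value in each of the 5 libraries. The 10 most abundant components alone held between 52.0% and 54.8%, and the single most abundant one between 14.3% and 24.4%. No gene names accompany the components, so no gene function is given and the results are ordered by pattern. In whole embryos, fewer cells with a transcript and less of it per cell cannot be told apart.

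As background, an embryo at first lives on RNA that the mother stored in the egg. Its own genome is switched on during the maternal-to-zygotic transition, which in the frog begins in the blastula, and stored RNA is cleared over the same period and later. During gastrulation cells move inward and the germ layers take their places, under genes that the embryo itself transcribes. Sturgeon eggs cleave completely, as frog eggs do.

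Stage 11 was the thinnest of the 5 libraries. Its summed value was 383496, against 423437 to 452570 in the others, and 33241 of its components were above 0, against 36758 to 37697. Components at 1 or more numbered 16337 and 15850 in the blastula libraries of stages 8 and 9, and 16690, 16534 and 15618 in the gastrula libraries of stages 10, 10.5 and 11, so the groups overlapped. The group means of this number were 16094 and 16281 (p = 0.8, two-sided exact permutation test; adjusted p = 0.8 over 3 measures). The other measures were the number of components above 0 (p = 0.4, exact permutation) and the share held by the 10 most abundant components (p = 0.8, exact permutation). The smallest p that 2 libraries against 3 can give is 0.2, so this test could not pass 0.05. Of the 11 components that ranked among the 10 most abundant in any of the 5 libraries, 9 did so in all 5. Absolute depth is unknown. Low values step in whole multiples of what 1 read is worth, and from these steps the reads behind a unit of value, relative to stage 10, were 0.977, 0.920, 0.877 and 0.641 for stages 8, 9, 10.5 and 11 in turn. A given value at stage 11 thus rests on the fewest reads.

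Almost no component appeared at early gastrula. A component was counted as appearing when it was listed at 0 in both blastula libraries and at 1 or more in all 3 early gastrula libraries. This held for 2 components, or 0.0114% of the 17569 kept. With 1 library left out the count was 5 without stage 10, 15 without stage 10.5, 16 without stage 11, 20 without stage 8 and 17 without stage 9. Leaving out a library removes a condition and can only add components. At a required value of 0.5 the count was 23, and at 2 or more it was 0. The count at 0.5 was taken over all 275906 components of the table and can include components that were not kept.

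The first of the 2 was comp255629_c1. It was listed at 0 in both blastula libraries, and the gastrula libraries of stages 10, 10.5 and 11 held deposited values of 1.47, 1.34 and 1.37. The 3 early gastrula libraries were nearly equal and the groups did not overlap. It was not absent before the blastula, with 0.70 at stage 0 and 0.18 at stage 4. It was again listed at 0 at stage 12 and stood at 0.39 at stage 12.5, before reaching 6.82 at stage 20. With stage 10 as 1, a unit of value stood for 0.533 reads at stage 12, so the 0 there rests on fewer reads. From stage 12.5 on, comp255629_c1 was listed at 0 only at stage 35. Its log2 difference, early gastrula minus blastula on the scale of log2(scaled value + 1), was 1.26 (SE 0.312). It did not pass limma's adjusted p threshold of 0.05 (adjusted p = 0.9999). Against a group at 0 this difference depends on the added 1 and gives no fold.

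The second component that appeared had 0 in both blastula libraries, then 3.67, 1.88 and 1.02 in the order of the early gastrula stages. Among the 5 libraries stage 10 was its highest. It too had a value before the blastula (0.41 at stage 4) and was listed at 0 at stage 12, and it reached 15.0 at stage 32. Both components were therefore listed above 0 at stage 4 and at 0 at stage 12. With stage 10 as 1, a unit of value stood for 1.61 reads at stage 4 and 0.533 at stage 12. A low value is thus more easily listed at 0 at stage 12, and whether these components were absent there was not tested. Whole reads could be estimated for neither of them.

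Vanishing components were also few. At 1 or more in both blastula libraries and at 0 in all 3 early gastrula libraries stood 5 components, or 0.0285% of those kept. Their blastula values ran only from 1.01 to 1.62. With 1 library left out the count was 8 without stage 10, 16 without stage 10.5, 11 without stage 11, 90 without stage 8 and 147 without stage 9. At a required value of 0.5 it was 36, and at 2 or more it was 0. These counts were taken over all 275906 components of the table, not only over the 17569 kept. Without stage 8, without stage 9 and at 0.5, only the same 5 were among the kept components.

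Of these, comp264367_c0 had the highest blastula values, with 1.52 at stage 8 and 1.62 at stage 9, and it was listed at 0 at stages 10, 10.5 and 11. The 2 blastula libraries were nearly equal and lay apart from the early gastrula libraries. The component was back at 0.56 at stage 12 and 0.99 at stage 12.5, and its highest value of the series was 10.05 at stage 36. Its log2 difference was -1.35 (SE 0.365, limma adjusted p = 0.9999), which again depends on the added 1. The other vanishing components behaved alike in one respect: all 5 had a value above 0 at stage 0 or 4, and all 5 had one at stage 12 or later, 4 of them already at stage 12 or 12.5. The same was not counted over all kept components, so it is not read as a trait of these. Some of these values were very low, such as 0.22 at stage 12.5 in 1 component, an estimated 1 read. For 3 of the 5 whole reads could be estimated from the steps of their values, and each had 3 or 4 reads in each blastula library. A count of 0 in 1 library allows up to 3 reads. For these 3 components, 1 blastula library against 1 early gastrula library lies at the edge of what the depth can separate. All 5 vanishing components were picked by this pattern from 17569 kept components.

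**Figure D1:**
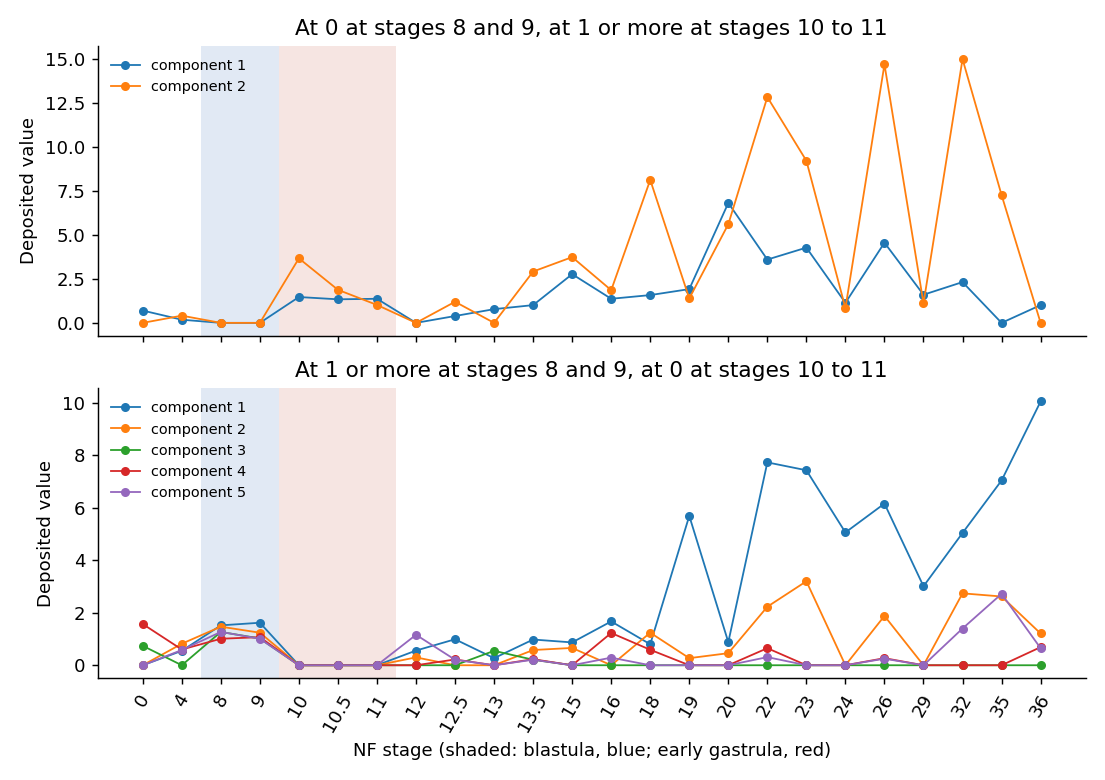
Deposited values in all 24 libraries of the 2 components listed at 0 at stages 8 and 9 and at 1 or more at stages 10 to 11 (upper panel) and of the 5 components with the reverse pattern (lower panel). Each line is 1 component, the x axis gives the NF stages in order, and in both panels values above 0 occur both before stage 8 and after stage 11.

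Listing at 0 on one side was itself rare among kept components. Both blastula libraries were at 0 for 32 components, of which 16 were above 0 in all 3 early gastrula libraries. Their highest value in any of the 5 libraries was 3.67. Of the 32, 25 had been above 0 at stage 0 or 4, and all 32 were above 0 at some stage from 12 on. Neither was counted over all kept components. The remaining 7 had no value at stage 0 or 4, and 1 of them reached 1 or more at stage 12 or 12.5. All 3 early gastrula libraries were at 0 for 5 components, those described as vanishing. The filter makes these the same components, since any kept component at 0 in all 3 must be at 1 or more in both blastula libraries. A component at 0 in both blastula libraries could be kept without reaching 1 in all 3 early gastrula libraries. The numbers 32 and 5 are therefore not set against each other.

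Most kept components were present throughout. A value of 1 or more was reached in all 5 libraries by 12181, in exactly 4 by 1734, in exactly 3 by 1577 and in exactly 2 by 2077. Only 161 were kept through the blastula libraries alone, 7.75% of those at 1 or more in exactly 2 libraries. Another 834 were kept through early gastrula libraries alone. Any 2 of the 3 early gastrula libraries suffice for this, while blastula alone needs both of its libraries. The numbers 834 and 161 are therefore not set against each other. Of the 834, 141 were at 1 or more in exactly the 3 early gastrula libraries, 8.94% of the components detected in exactly 3. Components kept through 1 group alone had to differ at the value of 1, so these numbers describe the filter and support no change.

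No component passed a test of the difference between the groups. limma called 0 of 17569 components (0%) at an adjusted p of 0.05, and 734 (4.18%) had an unadjusted p under 0.05. The smallest adjusted p was 0.9999. The median SE of a log2 difference was 0.27 and the median size of the difference 0.17. On simulated data of these 17569 components, 59% of the changes of 1 and 99% of the changes of 2 on the log2 scale were recovered, and 9 of 17369 unchanged components were called. The changed ones were drawn only from components with a mean log2(scaled value + 1) above 2, and noise was independent between libraries. The noise was normal, with the variances that limma had already drawn toward a common trend. No trend over the stages of a group was simulated. Of each size 100 changes were planted, and the adjustment of p is more lenient when many components change. In the data, 2 of the 17569 components differed by 2 or more on the log2 scale, and neither was called. The shares recovered therefore do not cover lower components and can be too high for the others. They do not give the share of real changes that would be called in these data. Because the libraries of a group are of different stages, developmental change within the group counts as error here, and a difference can be present without a call.

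The order of the libraries was also counted without a model. Every early gastrula library stood above both blastula libraries in 1500 components (8.54%), with a median log2 difference of 0.42. Every early gastrula library stood below both in 1918 (10.9%), with a median of -0.33. Together these were 3418 components (19.5%). This share is the background for such counts and is not read as change. With 1 library left out the number, of the same 17569 components, was 7544 without stage 8, 7927 without stage 9, 6200 without stage 10, 6363 without stage 10.5 and 5581 without stage 11. Non-overlap is easier to reach with fewer libraries, so these higher numbers are not read as change. The median over all kept components was -0.01, and 0.01 when libraries were scaled to their column totals. At least 2-fold, meaning a difference of 1 or more on the log2(scaled value + 1) scale, was the difference in 65 components that were higher (0.37%) and 62 that were lower (0.353%). Together these were 127 components (0.723%). With 1 of the 5 libraries left out the number was 407 without stage 9, 328 without stage 8, 270 without stage 10.5, 215 without stage 11 and 212 without stage 10. With an added constant of 0.5 it was 343, and with 0.1 it was 619. Among the 12181 components at 1 or more in all 5 libraries it was 27, and among the 7422 at 5 or more in at least 2 it was 20.

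**Figure D2:**
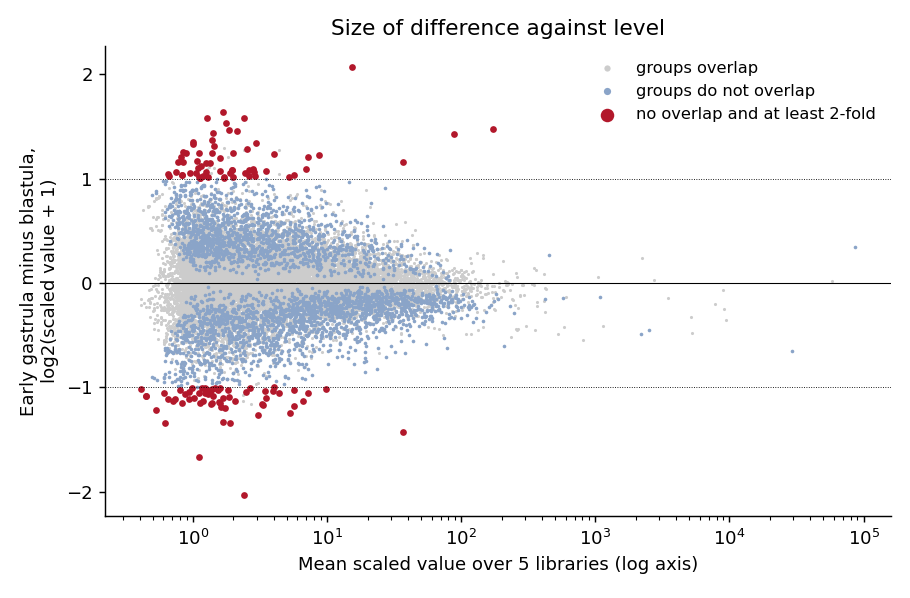
Each point is 1 of the 17569 kept components, with its mean scaled value over the 5 libraries on a log x axis and its log2 difference, early gastrula minus blastula, on the y axis. Red points, 65 above and 62 below, mark components whose groups do not overlap and differ at least 2-fold; most lie at mean values under 2.

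The 2-fold components were mostly near the limit of detection. A mean scaled value under 2 was held by 43 of the 65 higher and by 43 of the 62 lower components, and their median mean values were 1.58 and 1.44, against 3.30 over all kept components. Of all summed abundance, the higher set carried between 0.0421% and 0.0464% in blastula libraries and between 0.122% and 0.174% in early gastrula libraries. The lower set carried between 0.0612% and 0.0680% and then between 0.0204% and 0.0236%. Whole reads could be estimated for 33 of the higher components, whose group with higher values had a median of 6 reads per library and whose other group had 1.5. For 32 of the lower components these medians were 8.25 and 1. Reads could be estimated only where no fewer values above 0 lay at 8 reads or fewer than above 8. These medians therefore leave out components with many reads and do not describe the whole sets. Components at mean values of 5 or more made up 9 of the higher and 7 of the lower set.

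The widest gap upward belonged to comp137029_c0. Its values over stages 8, 9, 10, 10.5 and 11 were 0, 0.37, 2.41, 2.35 and 3.22, an estimated 0, 1, 7, 6 and 6 reads. The blastula libraries were low and all early gastrula libraries lay above them. The blastula mean was 0.185 ± 0.262 (SD, 2 libraries) and the early gastrula mean 2.66 ± 0.486 (SD, 3 libraries). The log2 difference was 1.64 (SE 0.287, limma adjusted p = 0.9999). Outside the 5 libraries the value was 5.76 at stage 0 and 1.71 at stage 4, and after stage 11 it was 1.29 and 0.92 (stages 12 and 12.5). The stage 0 value was thus above every early gastrula value.

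The widest gap downward belonged to comp284363_c0. Over the same stages its values were 7.71, 3.12, 0.36, 0.41 and 0.56, an estimated 21, 8, 1, 1 and 1 reads. The 2 blastula libraries differed from each other by more than the 3 early gastrula libraries did. The means were 5.42 ± 3.25 (SD, 2 libraries) and 0.443 ± 0.104 (SD, 3 libraries), with a log2 difference of -2.03 (SE 0.345, limma adjusted p = 0.9999). At stage 0 it was 1.72 and at stage 12 0.67, so stage 8 stood above the libraries on both sides.

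**Figure D3:**
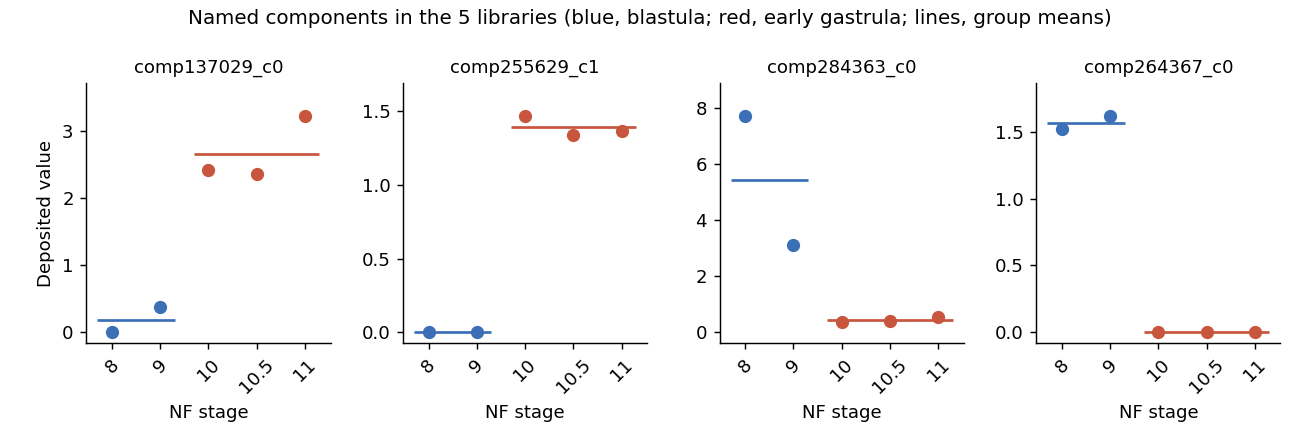
Deposited values of the 4 named components in the 5 libraries, with NF stage on the x axis, 1 point per library and a line at each group mean. In each panel all blastula points (blue) lie on one side of all early gastrula points (red), and no value exceeds 7.71.

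Among components at a mean scaled value of 20 or more, 4 of 2192 were both non-overlapping and 2-fold different. Over all 17569 kept components the number was 127 (0.723%). The 4 were singled out after their values were seen. The only lower one read 66.8 and 51.9 in the blastula libraries and 25.8, 12.9 and 27.1 in those of stages 10, 10.5 and 11. At stage 4 it was 18.4 and at stage 0 4.50, so its blastula values were a peak between lower values on both sides. Its log2 difference was -1.43 (SE 0.295, limma adjusted p = 0.9999).

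A pair of the 3 higher ones had been far more abundant in the egg. One went from 1815 at stage 0 and 114 at stage 4 to 30.6 at stage 8 and 62.1 at stage 9, and stood at 119, 130 and 104 at stages 10, 10.5 and 11. Its early gastrula values were therefore close to that of stage 4. At stages 12 and 12.5 it was higher, at 217 and 171. The other went from 3061 at stage 0 and 131 at stage 4 to 91.5 at stage 8 and 64.6 at stage 9, and stood at 422, 169 and 135 at stages 10, 10.5 and 11. Stage 10 was its high point among the 5 libraries. It was at 421 again at stage 12 and at 101.5 at stage 12.5. The log2 differences were 1.43 (SE 0.259) and 1.48 (SE 0.382), each with a limma adjusted p of 0.9999.

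The third belonged to a set of 3 components whose values rose at each step from stage 9 to stage 12. They came to notice through libraries outside the comparison. Kept components at least 4-fold higher at both stage 12 and stage 12.5 than at stage 4 numbered 16, and the 3 with the highest stage 12 values were followed back through the 5 libraries. They were singled out after their values were seen.

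The component with the highest stage 12 value had deposited values of 18.5 and 19.1 in blastula and of 22.3, 44.0 and 77.9 through early gastrula. Stages 12 and 12.5 then held 4570 and 5529. Stage 11 was 4.15-fold above the blastula mean, and stage 12 was 58.6-fold above stage 11. At stage 4 the value had been 35.7, above those of both blastula libraries.

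The next component had the largest log2 difference of all 17569. Its blastula values were 5.26 and 1.96, its early gastrula values 6.61, 14.7 and 45.9, and those of stages 12 and 12.5 were 4064 and 5954. The difference was 2.07 (SE 0.704, limma adjusted p = 0.9999, unadjusted p = 0.0188). Its SE was large beside the median of 0.27, and its early gastrula libraries lay far apart. It peaked at 8749 at stage 13 and was down to 6.08 at stage 36.

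The third of the set had 0.37 and 0 in blastula, 0.35, 1.39 and 6.02 in early gastrula, and 405 at stage 12. Stages 8 and 10 were nearly equal, so its groups overlapped. It had stood at 25.2 at stage 4, far above stage 11. In all 3 components the value rose at each step from stage 9 to stage 12.5. At stage 13 the values were 6370 in the first, 8749 in the second and 16.6 in the third. The third went up and down between later libraries, with 152 at stage 13.5, 266 at stage 15 and 18.4 at stage 16. Since each stage had 1 library, these steps have no replicate check.

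**Figure D4:**
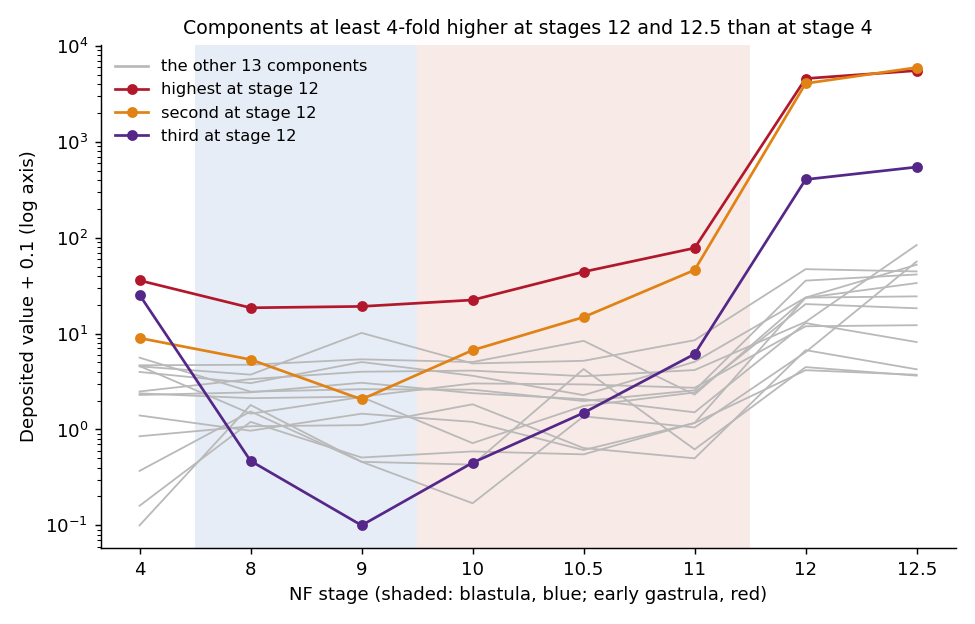
Deposited values plus 0.1, on a log axis, of the 16 kept components that were at least 4-fold higher at stages 12 and 12.5 than at stage 4, by NF stage. The 3 coloured lines rise at each step from stage 9 to stage 12, while the grey lines of the other 13 show no common course before stage 12.

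The other 13 of these 16 showed no such course. Their median log2 difference between early gastrula and blastula was -0.07, within a range from -0.33 to 0.33. Groups did not overlap in 1 that was higher and 1 that was lower. At a lower bar, 144 kept components were at least 2-fold higher at stages 12 and 12.5 than at stage 4. Of these, 25 (17.4%) stood higher in every early gastrula library than in both blastula libraries, against 8.54% of all kept components, and 5 (3.47%) stood lower in every one, against 10.9%. Their median log2 difference was 0.08, against -0.01 over all kept components. At least 2-fold higher without overlap were 4 of the 144, against 0.37% of all. The 103 components at least 2-fold lower at stages 12 and 12.5 than at stage 4 had a median of -0.13, with 23 (22.3%) lower without overlap against 10.9% of all kept components. Components are not independent of each other, and these shares are descriptions.

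Few components that were low at stages 0 and 4 and higher at stages 12 and 12.5 reached a value of 1 in the 5 libraries. In the whole table, 22 components were at 5 or more at stages 12 and 12.5 and under 0.5 at stages 0 and 4. Their low level at stages 0 and 4 was set by this choice. Above 0 were 6 of the 22 at stage 0 and 18 at stage 4, so most were not new at stage 12. Over stages 8, 9, 10, 10.5 and 11, 12, 7, 13, 8 and 11 were above 0. At 1 or more stood 1, 1, 0, 1 and 0 of the 22 over stages 8, 9, 10, 10.5 and 11. Their median value was 0.11 at stage 11 and 10.6 at stage 12. None was at 0 in both blastula libraries and above 0 in all 3 early gastrula libraries, and 4 were at 0 in all 5 libraries. Above 0 in at least 1 early gastrula library, after 0 in both blastula libraries, stood another 4.

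By the number of 2-fold different components, pairs across the onset of gastrulation lay among those within a group. The number of components at least 2-fold different was 751 between stages 8 and 9. Between a blastula and an early gastrula library it ran from 863 to 1183 over the 6 pairs. Among the 3 pairs of early gastrula libraries it ran from 1128 to 1435, with the highest number between stages 10 and 10.5. The mean over the 6 pairs across the onset was 989 and over the 4 pairs within a group 1131, a ratio of 0.875. Pairs that include stage 10 had between 1056 and 1435 such components and pairs without it between 751 and 1128. Among pairs without stage 10, those across the onset had between 863 and 1054. Most of these components were low: among the 2192 with a mean scaled value of 20 or more, between 2 and 43 differed 2-fold in any pair, the highest number between stages 8 and 11.

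**Figure D5:**
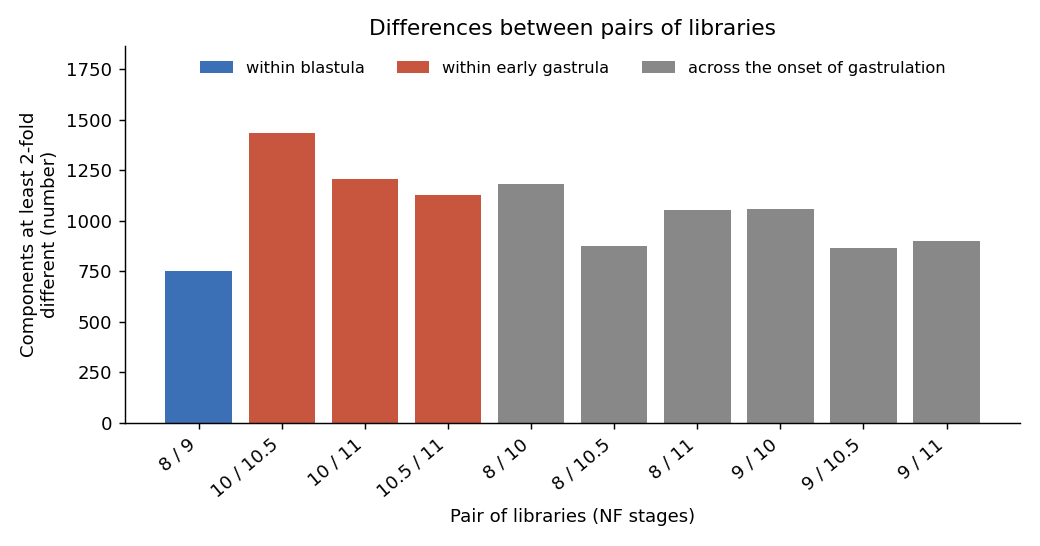
Number of kept components at least 2-fold different on the log2(scaled value + 1) scale for each of the 10 pairs of libraries, grouped as within blastula (blue), within early gastrula (red) and across the onset of gastrulation (grey). The lowest bar is stages 8 and 9 with 751, the highest is stages 10 and 10.5 with 1435, and the 6 bars across the onset lie between them.

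Abundant components were more often lower than higher at early gastrula, by little. Of the 2192 components with a mean scaled value of 20 or more, 1394 (63.6%) had a lower early gastrula mean, against 50.9% of all kept components. In 441 (20.1%) every early gastrula library stood below both blastula libraries, against 10.9% of all kept components. In 99 (4.52%) every one stood above, against 8.54%. The median log2 difference was -0.05, and between -0.08 and -0.03 under the 4 scalings and with any 1 library left out. With 1 library left out, between 149 (without stage 11) and 357 (without stage 9) stood above and between 532 (without stage 10.5) and 773 (without stage 8) below. Non-overlap is easier with fewer libraries. Without stage 8, 188 (8.58%) stood above and 773 (35.3%) below, against 3458 and 4086 of all 17569 kept components. Without stage 10.5 above and below lay closer together, at 341 (15.6%) and 532 (24.3%), against 3147 and 3216 of all 17569. The tilt toward lower values was thus weaker there. Components with a mean under 5 had a median of 0.02, with 1065 (10.0%) above and 865 (8.13%) below.

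Libraries that had no part in the comparison shared its direction in part. Stage 12 was above stage 4 in 37 of the 65 components that were 2-fold higher at early gastrula (56.9%), against 46.6% of all kept components. It was below stage 4 in 41 of the 62 that were 2-fold lower (66.1%), against 53.1% of all. In all, 78 of 127 (61.4%) had the same direction. Stage 12.5 was above stage 4 in 40 of the 65 (61.5%), against 48.5% of all, and below it in 35 of the 62 (56.5%), against 51.2% of all. With stage 10 as 1, a unit of value stood for 1.61 reads at stage 4, 0.533 at stage 12 and 1.502 at stage 12.5. Nearer to their early gastrula mean than to their blastula mean at stage 12 lay 28 of the 65 higher and 39 of the 62 lower components. At stage 12.5 these numbers were 34 and 29.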

How the data were processed

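The deposited table holds 1 abundance signal per assembled component and library, normalized by the authors before deposit; its values have 2 decimals and 0.458% of those above 0 are whole, so they are not counts. CASAVA 1.8.2, RSEM, Bowtie and Trimmomatic were used, per the submitters' processing notes, which give no roles; the assembler, the exact unit and any scaling between libraries are not given in the sources used here. All 24 value columns were mapped through the labels. Scaling of the 5 libraries used median-of-ratios factors from 23177 components, those above 0 in each. Differences were taken on log2(scaled value + 1), which understates changes of low components, and tested with limma 3.58.1 (R 4.3.3; trend and robust variances, two-sided, Benjamini-Hochberg over 17569 components). p-values measure the spread between these libraries only. Library measures were compared by exact permutation with scipy 1.17.1.

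The value of 1 read per library was estimated from the steps of low values over 46254 components. Reads of a component were estimated where at least 4 of its values above 0, and no fewer than those above 8 reads, lay at 8 reads or fewer and on whole multiples within 0.15 reads plus rounding. On simulated data 1466 of the 1467 components so treated were right. Floors cover counting error only.

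The members and lists were chosen with earlier results of these data known. Components were named by a rule: per direction, the one with the widest gap between groups, and the one at 0 on one side with the highest lowest value on the other. Alternatives covered scaling, constant, filter, variance model and leaving out each library. Most reads per component were not recovered, so no count model was run.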

Additional observations from a re-analysis of the deposited data

How the results depend on the processing

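The limma count stayed at 0 in all 16 alternatives run, with 291 to 1093 unadjusted p under 0.05 and a smallest adjusted p of 0.0834, without stage 9. Non-overlapping components numbered 3418 of 17569, within 1.5 times under the other scalings. Without a filter they numbered 7007 of 59187, a smaller share, and at 5 or more in at least 2 libraries 1579 of 7422. The 2-fold non-overlapping components numbered 127, then 619 and 343 with constants of 0.1 and 0.5, 27 at 1 or more in all 5 libraries and 20 at 5 or more in at least 2. Appearing components numbered 23, 0 and 0, and vanishing ones 36, 0 and 0, at required values of 0.5, 2 and 5. Filters change how many components are tested, and requiring a higher value can only lower these counts. Appearing and vanishing components were counted over the whole table here, not only over the kept components. Leaving out each library gave 0 to 0 limma calls, 5581 to 7927 non-overlapping, 212 to 407 2-fold, 5 to 20 appearing and 8 to 147 vanishing components. The ratio of pairs across to pairs within was 0.916 and 0.906 with constants of 0.1 and 0.5. The direction in other libraries was shared by 62.9% of all non-overlapping components and, with stage 12.5, by 59.1% of the 2-fold ones. Of all kept components, 46.6% were higher and 53.1% lower at stage 12 than at stage 4. At stage 12.5 these shares were 48.5% and 51.2%. The 4 named components kept their direction in the 13 alternatives in which each was tested. They were chosen for a gap between the groups in these same libraries, so this gives no support. A value near 1 can rest on 3 or 4 reads, which limits statements on low components. No paired analysis was possible because the labels number no replicates and no stage was sampled again.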

Other observations

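Counted on the same kept components, with 8 libraries scaled together, the step from stage 9 to stage 10 involved 909 components at least 2-fold different. The steps before it involved 656 (stages 4 to 8) and 616 (stages 8 to 9), and those after it 1260 (stages 10 to 10.5), 1018 (stages 10.5 to 11), 1366 (stages 11 to 12) and 1492 (stages 12 to 12.5). Of the 909, 597 were higher at stage 10. The kept components were chosen in stages 8 to 11 and each step compares 1 library with 1 library, so these numbers have no replicate check.

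Some components share the first number of their identifiers. Another kept component with the same number existed for 23 of the 65 numbers among the 2-fold higher components and for 19 of the 62 among the lower ones. Of the 34 such partners of higher components 18 (52.9%) were higher, against 49.1% of all kept components, with a median log2 difference of 0.02. Of the 26 partners of lower components 11 (42.3%) were lower, against 50.9% of all, with a median of 0.06.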
